A study of Mus musculus with 16 samples.

Results

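Mitochondrial ribosomal protein genes were examined in brown adipose tissue (BAT) of mice with a deletion of *Gdf15* in thermogenic adipocytes. Gene symbols beginning with Mrpl (large subunit) or Mrps (small subunit) and a number were taken from the 49066 symbols in the data. Of 83 such symbols, 5 belong to pseudogenes and were left out, so that 78 genes remained, 49 of the large and 29 of the small subunit. All 78 are annotated as protein-coding, they lie on 17 chromosomes, and all had a mean of at least 1 TPM (transcripts per 1000000, a level corrected for transcript length) over the 16 libraries.

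BAT was taken from C57BL6/J mice aged 18 weeks after 12 weeks of high-fat diet (HFD, 60% of calories from fat). KO mice carried *Gdf15* fl/fl and the Tg(Ucp1-cre)1Evdr transgene, which drives Cre from the *Ucp1* promoter in thermogenic adipocytes. WT mice carried *Gdf15* fl/fl without Cre, so both genotypes had the floxed alleles. Loss of *Gdf15* and presence of the Cre transgene therefore cannot be told apart. Each genotype was represented by 4 males and 4 females. Part of the study's HFD-fed mice were singly housed late in the diet in metabolic chambers at thermoneutrality, warmer than their usual housing. Whether the sequenced mice were among them is not given in the sources used here. One library was made per mouse from whole BAT, so fewer cells of a type and less RNA per cell cannot be told apart, and other cell types in BAT keep an intact *Gdf15*.

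Mitochondrial ribosomes translate the few mRNAs of the mitochondrial genome, all of which code for subunits of the respiratory chain and ATP synthase. Their RNA is made in the organelle, whereas their proteins are encoded in the nucleus, made in the cytosol and imported. The small subunit decodes the mRNA, and the large subunit holds the peptidyl transferase centre, a stalk that recruits translation factors, a central protuberance facing the small subunit and an exit tunnel that opens at the inner membrane. Part of the proteins have bacterial counterparts and part are found only in mitochondria. Brown adipocytes are dense in mitochondria, and their heat production depends on a respiratory chain that uncoupling protein 1 short-circuits. Of the 78 genes, *Mrps36* carries the name but codes for a subunit of the α-ketoglutarate dehydrogenase complex, and the proteins of *Mrps18a* and *Mrps30* sit in the large subunit despite their symbols.

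The deposited values were TPM, so depth is unknown and precision is described by the spread between mice. *Gdf15* was at 0.368 to 3.81 deposited TPM in male WT and 0.0801 to 0.272 in male KO libraries (exact permutation p = 0.0286, the smallest possible with 4 against 4), and at 0.0622 to 0.311 in female WT libraries, with 3 of 4 female KO libraries listed at 0 and the fourth at 0.0794 (exact permutation p = 0.0571). *Ucp1*, the marker of brown fat, was at 2353 to 4423 TPM in all 16 libraries. Mitochondrially encoded transcripts took 34.5 to 59.8% of all TPM, so the libraries were rescaled by the median ratio over 16526 genes (factors 0.836 to 1.16) before any comparison. Female WT replicate 4 stood apart: transcripts without a gene match held 17.7% of its TPM, against at most 0.48% in the other libraries. It also had the lowest median level of mitochondrial ribosomal protein genes. In comparisons with female WT mice, counts of members above or below 0 and list medians are therefore given with and without it. So are the fold changes of named genes, singly or as a range, except for *Ndufs1* and *Ndufa10*. Counts of genes without overlap are given with it only.

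The promoter windows, 250 bases before to 50 bases after the annotated start, are shown first because part of the genes have letter matches there, which their names do not fix. RefSeq (GRCm38.p6) gave 75 windows for 69 of the 78 genes. The letters CCGGAAG, the core bound by GABP and other ETS factors, were found on either strand in 34.7% of these windows, against 18.1% of the windows of genes with a mean of at least 1 TPM and 8.86% of all 32851 windows. The YY1 core AAGATGGCG was in 10.7%, against 3.14% and 1.40%, and the palindromic NRF1 motif in 4.0%, against 2.11% and 0.971%. The GC box GGGCGG was in 52.0% of member windows, against 62.9% of windows of expressed genes. The estrogen-related receptor element TCAAGGTCA was in none of the 75 windows (0.298% of windows of expressed genes), the E-box CACGTG was in 9.33% against 10.1%, and TATAAA in 6.67% against 7.11%. Letter matches are descriptions and were not tested as binding sites. The exon-free stretches upstream of 5 genes are given as examples. Of these, *Mrps18a*, *Mrpl58*, *Mrpl9* and *Mrpl46* are among the genes named in a comparison, and *Mrps11* shares its stretch with *Mrpl46*. Other named genes, such as *Mrpl49*, *Mrps9*, *Mrpl50* and *Mrps6*, had no GABP/ETS, YY1 or NRF1 match in their stretch. The 5 stretches are given 5′ to 3′ on the strand of the gene, with a GABP/ETS match (*Mrps18a*, *Mrpl58*) or an NRF1 match (*Mrpl9*) in capitals. They lie at chr17:46110754-46110985 (plus strand), chr11:115403502-115403751 (plus strand), chr3:94443086-94443317 (plus strand) and, for *Mrpl46* (minus strand) and *Mrps11* (plus strand), at the same interval, chr7:78783090-78783118.
Mrps18a: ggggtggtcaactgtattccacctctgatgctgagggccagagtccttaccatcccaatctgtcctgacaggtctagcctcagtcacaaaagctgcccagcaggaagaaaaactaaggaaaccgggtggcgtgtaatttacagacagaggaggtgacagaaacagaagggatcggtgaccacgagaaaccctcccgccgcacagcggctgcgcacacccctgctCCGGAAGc
Mrpl58: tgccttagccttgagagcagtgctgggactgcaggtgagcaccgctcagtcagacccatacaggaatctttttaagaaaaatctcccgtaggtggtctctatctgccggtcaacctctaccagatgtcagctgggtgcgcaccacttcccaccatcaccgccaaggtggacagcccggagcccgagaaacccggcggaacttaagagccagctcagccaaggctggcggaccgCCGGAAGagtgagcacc
Mrpl9: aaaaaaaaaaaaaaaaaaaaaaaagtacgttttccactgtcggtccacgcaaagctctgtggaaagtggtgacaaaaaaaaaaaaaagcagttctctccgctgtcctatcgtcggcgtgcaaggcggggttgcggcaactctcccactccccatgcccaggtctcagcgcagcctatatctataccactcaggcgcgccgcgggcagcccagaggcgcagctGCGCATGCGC
Mrpl46: gcccctcgccggcccgcgttgcctcatgg
Mrps11: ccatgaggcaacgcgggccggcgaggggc

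*Mrpl46*, of the large subunit, and *Mrps11*, of the small subunit, are thus transcribed away from each other out of 1 shared stretch of 29 bases, without a match to the listed letters. A head-to-head protein-coding neighbour within 1000 bases was annotated for 23 of the 78 genes (29.5%), against 12.7% of 10850 expressed protein-coding genes. Such pairs included *Mrps12* with *Sars2*, the mitochondrial seryl-tRNA synthetase, *Mrpl36* with the complex I subunit *Ndufs6*, *Mrpl49* with *Fau*, which encodes a cytosolic ribosomal protein, and *Mrpl32* with the proteasome subunit *Psma2*. The pair *Mrpl46* and *Mrps11* was not among the 23 because their GENCODE models overlap by more than 200 bases, and reads from the overlap cannot be told apart unless strand was used in quantification, which is not given in the sources used here.

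Mitochondrial ribosomal protein genes were expressed well above the typical gene. The median of their mean rescaled TPM was 51.3, against 7.61 over all 12208 genes with a mean of at least 1 TPM, and together they took 0.315 to 0.539% of all TPM in a library. The large-subunit genes had a median of 51.9 TPM and the small-subunit genes of 46.5. Within the large subunit, the highest were *Mrpl30* at 197 ± 16.7 TPM (SD, n = 16), *Mrpl42* at 195 ± 14.6 and *Mrpl51* at 153 ± 18.3. In the small subunit by symbol, the highest were *Mrps36* at 197 ± 20.3, *Mrps21* at 173 ± 24.2 and *Mrps35*. The first 3 of the whole set, *Mrpl30*, *Mrps36* and *Mrpl42*, lay closer together than their SDs. *Mrpl12*, whose protein forms the stalk that binds translation factors and has also been reported to bind the mitochondrial RNA polymerase, was sixth at 125 ± 11.4 TPM.

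At the low end were *Mrpl1* at 8.07 ± 1.29 TPM, *Mrpl23* at 11.6 ± 7.22 and *Mrpl19* at 14.6 ± 1.81 in the large subunit, and *Mrps30* at 10.9 ± 0.729, *Mrps22* at 17.3 ± 2.69 and *Mrps26* at 20.7 ± 2.74 in the small. The mean of the highest gene was 24.5-fold that of the lowest. Most of these proteins are present as 1 copy in a ribosome. The 3 genes that share the name Mrps18 and have 1 bacterial counterpart lay at 61.4 (*Mrps18a*), 52.6 (*Mrps18b*) and 38.1 TPM (*Mrps18c*). Across the 78 genes, the Spearman correlation of mean TPM with the length of the leading transcript was -0.30, a description over genes that share the same libraries.

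**Figure D1:**
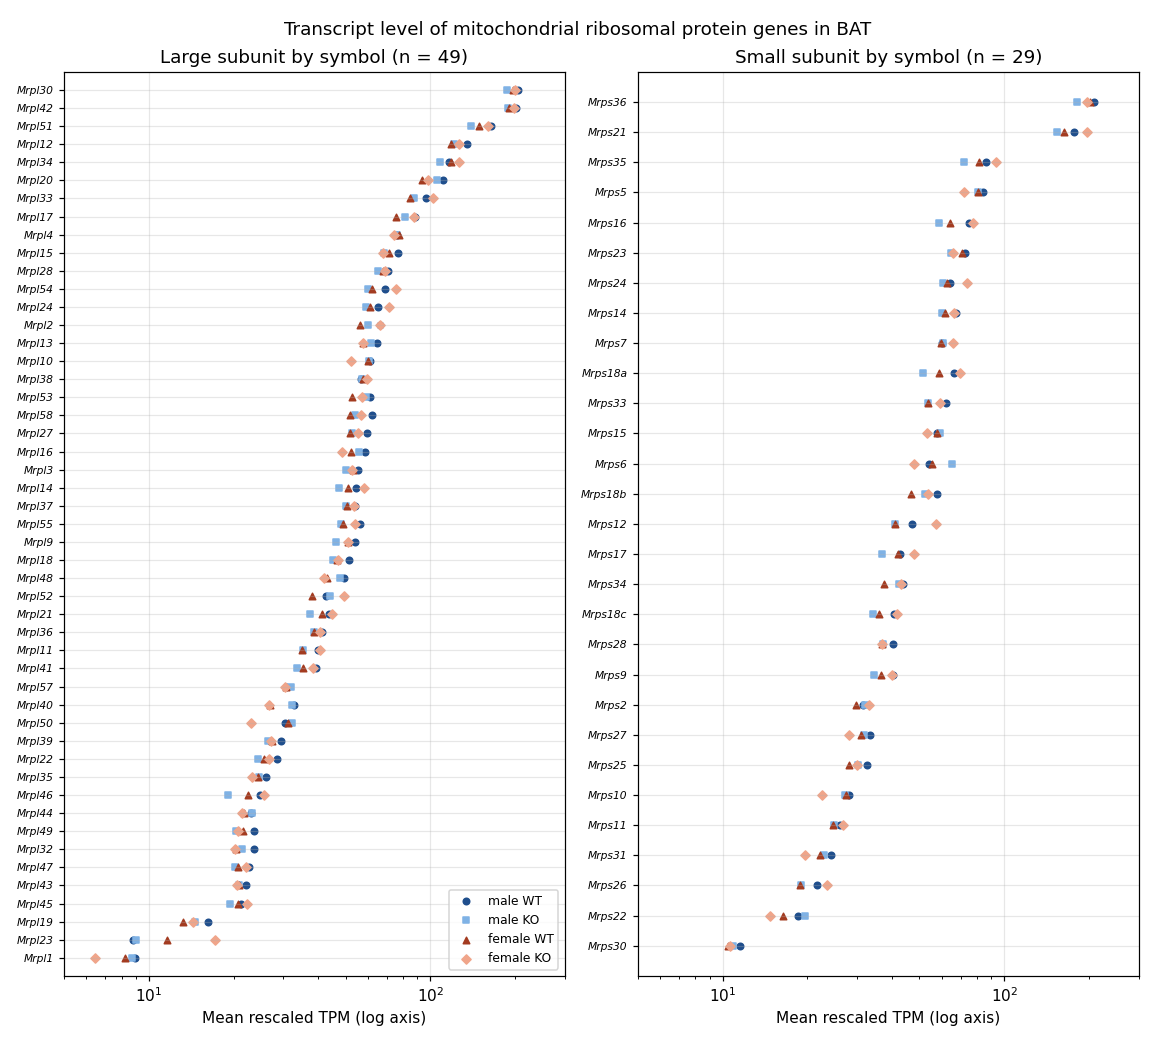
Mean rescaled TPM (x axis, log scale) of each mitochondrial ribosomal protein gene in WT and KO mice of each sex (n = 4 each), for 49 large-subunit and 29 small-subunit symbols ranked by their overall mean. The order runs from *Mrpl30* and *Mrps36* at 197 TPM down to *Mrpl1* at 8.07 TPM, and for most genes the 4 group means lie close together relative to that range.

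The levels varied little between mice. The median SD of log2(rescaled TPM + 0.5) over the 16 libraries was 0.168 for the 78 genes, against 0.241 for all genes with a mean of at least 1 TPM and 0.202 for the 1722 other genes within 2-fold of the members' median level. With the median of all members subtracted from each library it was 0.133. *Mrpl37* (SD 0.078), *Mrpl43* (0.086) and *Mrpl38* (0.092) were the steadiest, and *Mrpl37* stayed between 47.6 and 56.9 TPM in every library. *Mrpl23* (SD 0.88), *Mrpl50* (0.31) and *Mrps12* (0.28) varied most.

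The variation of *Mrpl23*, a protein at the exit tunnel, could not be separated from that of its pseudogene *Mrpl23-ps1*. The gene was listed at 2.34 to 27.6 TPM and the pseudogene at 17.5 to 60.6 TPM, so most of the signal was assigned to the pseudogene. The gene took 4.16% of their sum in male WT replicate 4 and 54.1% in female WT replicate 4. The sum stayed between 38.2 and 67.3 TPM, with an SD of 0.22 on the log2 scale. The level of *Mrpl23* on its own is therefore uncertain.

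For part of the genes, the transcript carrying most of the TPM was not the protein-coding model. This was so for 17 of the 78 genes (21.8%), against 11.9% of 10850 expressed protein-coding genes. The leading model was a nonsense-mediated decay transcript in 6 genes, a processed transcript in 6 and a retained intron in 5. Protein-coding models took only 2.36% of the TPM of *Mrps16*, 2.94% of *Mrpl51*, 3.46% of *Mrps26* and 7.69% of *Mrpl32*, whereas they carried nearly the whole of *Mrpl46*, whose model *Mrpl46-201* held 99.6%. How kallisto divided reads between overlapping models of a gene decides these shares, so the sum over models is used below.

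The share of the large subunit in the summed TPM was much the same in every mouse. Large-subunit genes took 62.7 to 64.4% of the summed TPM of the 78 genes in the 16 libraries. In males the share was 63.6 ± 0.272% in WT and 63.8 ± 0.426% in KO mice, and in females 63.3 ± 0.350% in WT and 62.9 ± 0.296% in KO mice (SD, n = 4 each), and the groups overlapped in both sexes. The median log2 level of the large-subunit genes was above that of the small-subunit genes by 0.14 on average over the libraries, from -0.02 to 0.35, and it was above in 14 of 16 libraries. Placing *Mrps18a* and *Mrps30* in the large subunit and leaving out *Mrps36* gave an average of 0.18. By symbol, the difference was 0.21 ± 0.11 in male WT and 0.11 ± 0.12 in male KO mice (SD, n = 4 each). In females it was 0.18 ± 0.07 in WT and 0.06 ± 0.08 in KO mice, and the groups overlapped in both sexes.

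By library, the large-subunit median on the log2 scale was 5.70, 5.81, 5.69 and 5.70 in male WT mice and 5.66, 5.64, 5.55 and 5.49 in male KO mice. All 4 male KO libraries lay below all 4 male WT libraries, and the highest male WT library was replicate 2. This order rests on the rescaling, whose factors were 0.836 to 1.08 in male WT and 1.04 to 1.16 in male KO libraries. In female WT mice it was 5.77, 5.65, 5.72 and 5.28, and in female KO mice 5.60, 5.80, 5.67 and 5.66, so these groups overlapped and replicate 4 was the lowest of all. The small-subunit median was 5.51, 5.73, 5.35 and 5.48 in male WT and 5.60, 5.51, 5.29 and 5.51 in male KO mice, which overlapped. It was 5.59, 5.38, 5.56 and 5.16 in female WT and 5.62, 5.64, 5.63 and 5.60 in female KO mice, where all KO libraries lay above all WT libraries, narrowly so for WT replicate 1.

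**Figure D2:**
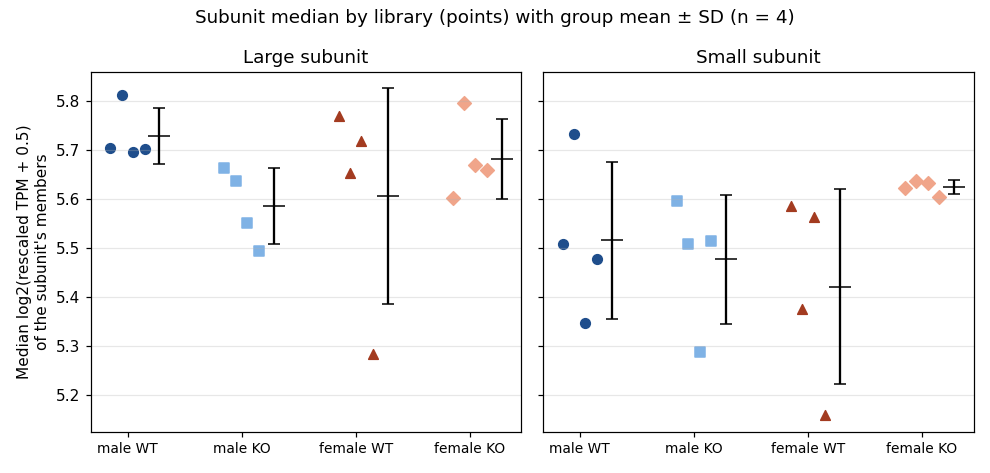
Median log2(rescaled TPM + 0.5) of the large-subunit (left) and small-subunit (right) genes in each library (points), with the group mean and SD (n = 4) beside them. After rescaling, the male KO points of the large subunit sit at 5.49 to 5.66, below the male WT points at 5.69 to 5.81. Female WT replicate 4 is the lowest point in both panels.

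In males, KO and WT were compared to ask whether the KO genotype goes with another level of the translation machinery of mitochondria under HFD. No mitochondrial ribosomal protein gene passed the threshold of limma (adjusted p under 0.05), at which 3 of 12103 genes tested, 0.0248%, were called. The fitted log2 fold changes were small and mostly negative: 66 of 78 genes lay below 0 (84.6%, against 48.9% of all genes tested), with a median of -0.13, from -0.36 to 0.28, beside 0.00 over all genes. The medians were -0.13 in the large and -0.12 in the small subunit. At an unadjusted p under 0.05, 17 genes were lower, against 7.24% of all genes tested, and 1, *Mrps6*, was higher, against 8.36%. In 9 of the 78 genes all male KO libraries lay below all male WT libraries (background 4.23%), and in none above (background 4.87%). The scaling of the libraries bears on this: with TPM as deposited the median of the 78 genes was 0.04, when that of all genes was 0.16, and no gene was lower at an unadjusted p under 0.05. Rescaled on transcripts outside the mitochondrial genome, it was -0.06, with all genes at 0.06. Relative to all genes, the members lay lower by about the same amount under these scalings. Each scaling divides all genes of a library by the same factor, so this relative position could hardly change and is no check.

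*Mrpl46*, a protein of the central protuberance found only in mitochondria, had the smallest p. It was at 22.8, 30.3, 24.4 and 21.9 rescaled TPM in male WT mice and 20.4, 19.2, 18.9 and 17.8 in male KO mice. The groups did not overlap, and the highest WT value was replicate 2. The log2 fold change was -0.36 (SE 0.10, limma adjusted p = 0.191). *Mrps11*, which shares its upstream stretch, had a log2 fold change of -0.06 (SE 0.13, limma adjusted p = 0.855). *Mrpl49*, another mitochondria-specific large-subunit protein, was at 23.8, 24.2, 23.7 and 22.6 TPM in WT and 21.4, 19.5, 21.3 and 19.2 in KO mice. Here too every KO library was below every WT library, within narrow groups (log2 fold change -0.21, SE 0.06, limma adjusted p = 0.196).

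*Mrps18a*, whose protein sits in the large subunit, had a difference of like size to *Mrpl46* with overlapping groups. It was at 64.1, 80.3, 60.7 and 59.2 TPM in WT mice and 60.3, 47.6, 48.2 and 49.1 in KO mice, where replicate 1 lay among the WT values (log2 fold change -0.36, SE 0.12, limma adjusted p = 0.230). *Mrpl18*, a central protuberance protein, was at 51.1, 52.2, 51.3 and 51.5 TPM in WT and 49.1, 45.2, 44.9 and 40.7 in KO mice. The WT values lay almost on top of each other and above all KO values (log2 fold change -0.20, SE 0.07, limma adjusted p = 0.233). *Mrpl58*, a peptidyl-tRNA hydrolase built into the large subunit, was at 57.6 to 71.6 TPM in WT and 51.6 to 57.2 in KO mice, without overlap (log2 fold change -0.20, SE 0.08, limma adjusted p = 0.296). Of the 8 central protuberance genes, 7 were below 0 with a median of -0.19, and all 5 stalk genes were below 0 with a median of -0.15. Of the 7 exit tunnel genes, 5 were below 0 and 2 above, with a median of -0.12. Genes with a bacterial counterpart had 42 of 48 below 0 and mitochondria-specific genes 24 of 30, with medians of -0.13 and -0.10. The misnamed *Mrps36* was at 208 ± 19.6 TPM in male WT and 182 ± 2.75 in male KO mice (SD, n = 4; log2 fold change -0.19, SE 0.08, limma adjusted p = 0.298).

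The other genes with the smallest p in males were *Mrpl21* (-0.23), *Mrpl9* (-0.21), *Mrps9* (-0.22), *Mrpl32* (-0.15), *Mrps16* (-0.34) and *Mrpl3* (-0.15), which are fitted log2 fold changes with limma adjusted p from 0.226 to 0.258. All 6 have bacterial counterparts. Among them, *Mrpl21*, *Mrpl32* and *Mrpl3* did not overlap between genotypes. For *Mrpl32* and *Mrpl3* the sign depended on the scaling, since their log2 fold change was 0.02 with TPM as deposited. *Mrps6*, a small-subunit protein with a bacterial counterpart, went the other way. It was at 44.9, 51.2, 58.6 and 62.1 TPM in WT and 63.3, 65.8, 59.3 and 73.6 in KO mice, with only KO replicate 3 inside the WT range (log2 fold change 0.28, SE 0.11, limma adjusted p = 0.298).

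In females, no gene passed the threshold of limma either, among the 78 or among all 12204 genes tested (0%), where 1289 genes were higher and 1162 lower at an unadjusted p under 0.05. The fitted log2 fold changes leaned upward, with 55 of 78 genes above 0 (70.5%, against 51.7% of all genes tested) and 23 below (background 48.3%) and a median of 0.09, from -0.46 to 0.49, beside 0.01 over all genes. The medians were 0.08 in the large and 0.14 in the small subunit. At an unadjusted p under 0.05, 2 genes were higher and 1 lower, against 10.6% and 9.52% of all genes tested. These counts rested on single libraries. Leaving out 1 library gave 1 to 8 higher, with 8 without female WT replicate 1, and 0 to 3 lower, with 3 without female KO replicate 3. Shares over all genes were not computed for these fits, except for that without female WT replicate 4. In 1 gene, *Mrps18b*, the groups did not overlap with KO higher (background 5.78%), and in none with KO lower (background 6.01%). Without female WT replicate 4, the upward lean was gone: 37 genes were above and 41 below 0, the median was -0.01, and 1 gene was higher and 0 lower at an unadjusted p under 0.05. The medians were then -0.02 in the large and 0.01 in the small subunit.

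*Mrps12*, a protein of the decoding centre, had the smallest p in females. It was at 49.7, 41.0, 40.9 and 31.9 TPM in female WT mice and 67.9, 49.2, 49.1 and 63.5 in female KO mice. KO replicates 1 and 4 were the highest of all libraries, the other two were just below WT replicate 1, and the log2 fold change was 0.49 (SE 0.17, limma adjusted p = 0.184), or 0.38 without WT replicate 4. *Mrps26*, a mitochondria-specific small-subunit protein, was at 22.7, 15.2, 19.3 and 18.3 TPM in WT and 23.6, 21.5, 24.3 and 24.2 in KO mice. Only WT replicate 1 reached the KO range (log2 fold change 0.31, SE 0.13, limma adjusted p = 0.222, and 0.30 without WT replicate 4). *Mrps18b* was at 46.1, 47.5, 50.004 and 43.8 TPM in WT and 51.8, 54.5, 50.8 and 58.2 in KO mice, without overlap (log2 fold change 0.20, SE 0.09, limma adjusted p = 0.261, and 0.17 without WT replicate 4).

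*Mrpl50*, a mitochondria-specific large-subunit protein, had the lowest fold change in females. It was at 27.5, 39.5, 29.9 and 28.5 TPM in WT and 16.02, 24.5, 30.2 and 21.3 in KO mice, where replicate 3 lay inside the WT range (log2 fold change -0.46, SE 0.20, limma adjusted p = 0.244, and -0.50 without WT replicate 4). *Mrps10*, *Mrpl1* and *Mrpl10* also had negative log2 fold changes, of -0.30, -0.34 and -0.20, and *Mrpl33*, *Mrps18a* and *Mrpl52* positive ones, of 0.27, 0.25 and 0.36 (limma adjusted p 0.254 to 0.289 for these 6). Without WT replicate 4 they were -0.31, -0.40 and -0.22, and 0.19, 0.23 and 0.28, in the same order. *Mrpl1*, which forms the mobile stalk at the exit site for tRNA, was at 7.08 to 9.23 TPM in WT and 4.66 to 7.63 in KO mice. *Mrps36* was at 202 ± 30.8 TPM in female WT and 197 ± 15.1 in female KO mice (SD, n = 4; log2 fold change -0.02, SE 0.14, limma adjusted p = 0.936, and -0.14 without WT replicate 4).

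**Figure D3:**
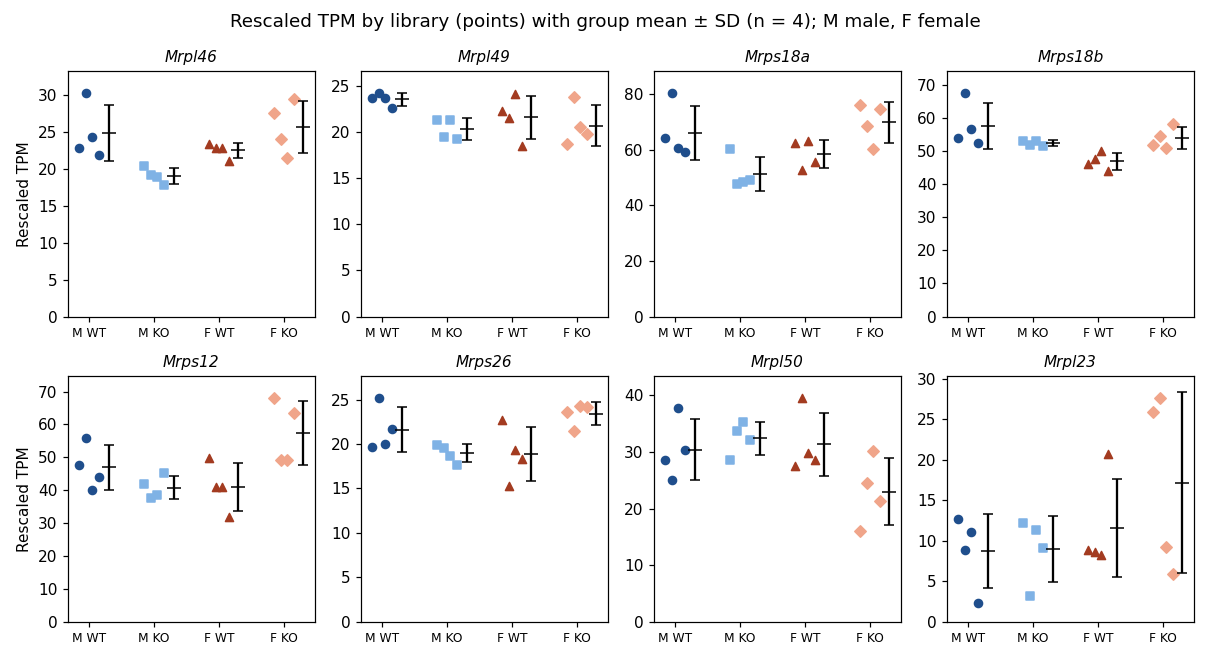
Rescaled TPM (y axis, from 0) of 8 genes in each library (points, n = 4 per group) with the group mean and SD; M is male and F female. *Mrpl46* and *Mrpl49* in male KO mice lie below all male WT values, *Mrps18b* in female KO mice lies above all female WT values, and *Mrpl23* ranges from 2.34 to 27.6 TPM.

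The effect of the KO was then compared between the sexes as an interaction over all 16 libraries (female effect minus male effect). No gene passed the threshold of limma among the 78 or among all 12208 genes tested (0%), where 1130 genes had a positive and 1136 a negative difference at an unadjusted p under 0.05. The difference was above 0 for 64 of the 78 genes (82.1%, against 50.3% of all genes), with a median of 0.21 beside 0.00 over all genes, 0.19 in the large and 0.21 in the small subunit. At an unadjusted p under 0.05, 21 genes had a positive difference (background 9.26%) and 2, *Mrps6* and *Mrpl50*, a negative one (background 9.31%). Without female WT replicate 4, 58 genes were above 0 and the median was 0.11, also in each subunit. Then 13 of the 78 genes had a positive difference at an unadjusted p under 0.05, as did 1011 of 12149 genes tested. Leaving out any 1 library gave 13 to 26 members with such a difference, the most without female WT replicate 1. For the other left-out libraries the share over all genes was not computed. Rescaled on transcripts outside the mitochondrial genome, the median was 0.09, with all genes at -0.11.

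The 5 genes with the smallest p of the interaction were *Mrps18a* (0.61, SE 0.16), *Mrpl46* (0.54, SE 0.15), *Mrps12* (0.68, SE 0.20), *Mrps26* (0.49, SE 0.15) and *Mrps6* (-0.48, SE 0.16), as differences of log2 fold changes, each with a limma adjusted p of 0.193. Without female WT replicate 4 they were 0.59, 0.51, 0.57, 0.48 and -0.48, with a limma adjusted p of 0.255. The first 4 were lower in male KO than in male WT means and higher in female KO than in female WT means. *Mrps6* had the reverse order, at 54.2 ± 7.67 TPM in WT and 65.5 ± 6.03 in KO males, and at 55.3 ± 6.42 in WT and 47.9 ± 4.47 in KO females (SD, n = 4).

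Between WT females and WT males, no mitochondrial ribosomal protein gene passed the threshold of limma, at which 8 of 12154 genes (0.0658%) were called. The female level was lower for 71 of 78 genes (91.0%, against 53.7% of all genes) and higher for 7 (background 46.3%), with a median of -0.13 in both subunits, beside -0.02 over all genes. At an unadjusted p under 0.05, 4 genes were lower (background 3.45%) and none higher (background 2.39%), and 3 did not overlap with females lower (background 2.17%) and none with females higher (background 1.66%). These were *Mrps18b* (log2 difference -0.29), *Mrpl40* (-0.29) and *Mrpl58* (-0.25), and *Mrpl19* (-0.29) was the fourth. *Mrpl20* followed with -0.26. *Mrpl40* is a mitochondria-specific protein of the central protuberance and was at 29.8 to 35.2 TPM in male WT and 21.9 to 29.5 in female WT mice. The limma adjusted p of these 5 genes ran from 0.751 to 0.826. Without female WT replicate 4, 52 of 78 genes were lower, 2 of them at an unadjusted p under 0.05 (355 of 12042 over all genes tested). The member median was -0.04, also in each subunit. The 5 differences were then -0.26 for *Mrps18b*, -0.19 for *Mrpl40*, -0.20 for *Mrpl58*, -0.26 for *Mrpl19* and -0.16 for *Mrpl20*, with limma adjusted p from 0.923 to 0.982. In the same WT libraries, skeletal muscle markers were lower in females in 10 of 10 genes (median log2 difference -2.53) and brown adipocyte markers in 8 of 10 (-0.21). Fibroblast markers were higher in 8 of 9 (0.53) and macrophage markers in 9 of 9 (0.25), while endothelial markers had a median of -0.12 and white adipocyte markers of -0.42. Without female WT replicate 4 these medians were -1.66, -0.14, 0.52, 0.34, -0.20 and -0.60 in that order, and their part in the difference between the sexes was not tested. This comparison shares its WT libraries with both KO comparisons.

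**Figure D4:**
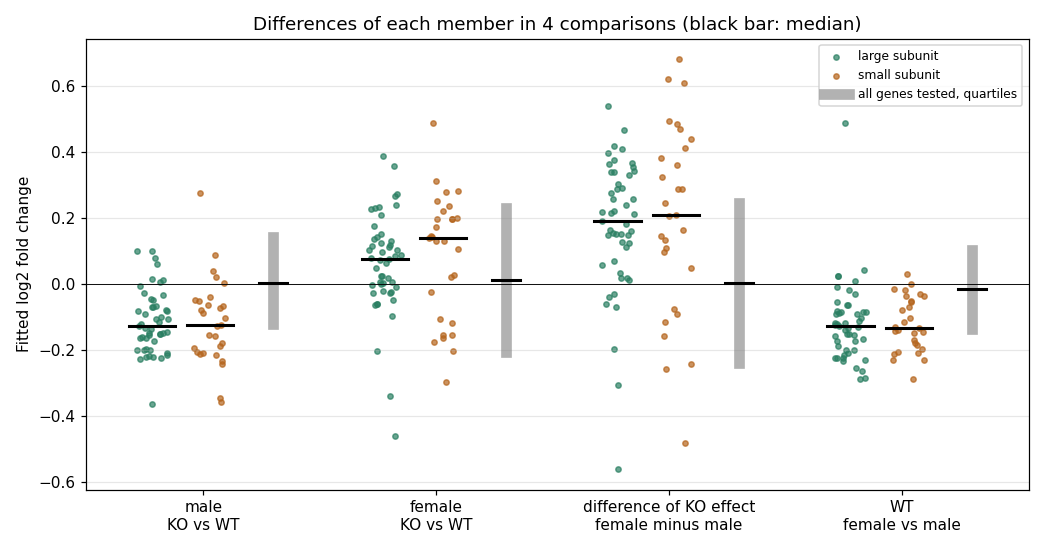
Fitted log2 fold change (y axis) of each large-subunit (green) and small-subunit (brown) gene in the 4 comparisons on the x axis; black bars are medians and grey bars the quartiles of all genes tested. The medians of both subunits lie at -0.13 and -0.12 in male KO, at 0.08 and 0.14 in female KO, near 0.2 for the difference of the KO effects, and at -0.13 between WT females and males. Without female WT replicate 4, the large- and small-subunit medians were -0.02 and 0.01 in female KO. Both were then 0.11 for the difference of the KO effects and -0.04 between WT females and males.

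Other genes of mitochondrial gene expression were listed beside the members, and none of these lists held a gene past the limma threshold in either KO comparison. The 5 mitoribosome proteins with other names (*Dap3*, *Ptcd3*, *Chchd1*, *Aurkaip1* and *Gadd45gip1*) had a median log2 fold change of -0.18 in males and 0.19 in females, with 4 of 5 genes on that side of 0 in each sex. The female median was 0.09 without female WT replicate 4. Assembly factors, which mature and join the ribosomal RNA and proteins, had -0.08 and 0.05 over 30 genes, the latter 0.01 without that library. The one with the smallest p in males was *Malsu1*, which keeps unfinished large subunits from joining (log2 fold change -0.37, SE 0.08, limma adjusted p = 0.116). In females it was the RNA helicase *Dhx30* (0.47, SE 0.14, limma adjusted p = 0.177, and 0.50 without that library).

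Translation factors had a median of -0.02 in males and -0.16 in females over 16 genes. The elongation factor *Gfm1* was at 0.26 (SE 0.14) in males and -0.58 (SE 0.18) in females, with limma adjusted p of 0.396 and 0.179. The aminoacyl-tRNA synthetases, which charge mitochondrial tRNAs, had 0.00 and -0.17 over 16 genes, with *Iars2* at -0.44 in females (SE 0.11, limma adjusted p = 0.167). Genes of mitochondrial transcription had -0.16 and -0.07 over 6 genes. The female medians of these 3 lists were -0.17, -0.15 and -0.19 without female WT replicate 4, with *Gfm1* at -0.62 and *Iars2* at -0.46. The 13 mitochondrially encoded mRNAs, the templates of these ribosomes, had -0.26 in males, all 13 below 0, and -0.11 in females, 11 below 0. The female median was -0.37, with all 13 below 0, without female WT replicate 4. In polyA libraries these transcripts depend on their short tails being captured.

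For the nuclear subunits of complex I, which assemble with the products of mitochondrial translation, the median was -0.19 in males, with 34 of 36 genes below 0 and 13 lower at an unadjusted p under 0.05 (background 7.24%), and 0.18 in females, with 30 of 36 above 0. In males the groups did not overlap in 6 genes with KO lower (background 4.23%) and in 0 with KO higher (background 4.87%). In females none was higher and 2, *Ndufs1* (-0.43) and *Ndufa10* (-0.34), were lower at an unadjusted p under 0.05 (background 10.6% and 9.52%). The female groups did not overlap in 1 gene, with KO lower (background 6.01%). Leaving out female WT replicate 4, the median was 0.07, with 24 of 36 above 0. The proteins of the cytosolic ribosome had -0.14 in males, where 72 of 79 genes were below 0 and none had an unadjusted p under 0.05. In females they had 0.50, with all 79 genes above 0, 58 higher at an unadjusted p under 0.05 (background 10.6%) and 35 without overlap (background 5.78%). With female WT replicate 4 left out, the median was 0.37, with all 79 above 0. At an unadjusted p under 0.05, 32 were then higher, beside 1223 of 12119 over all genes tested. The median of 0.50 was larger than the median of 0.09 of the mitochondrial ribosomal protein genes in the same libraries, and the difference between the lists was not tested.

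**Figure D5:**
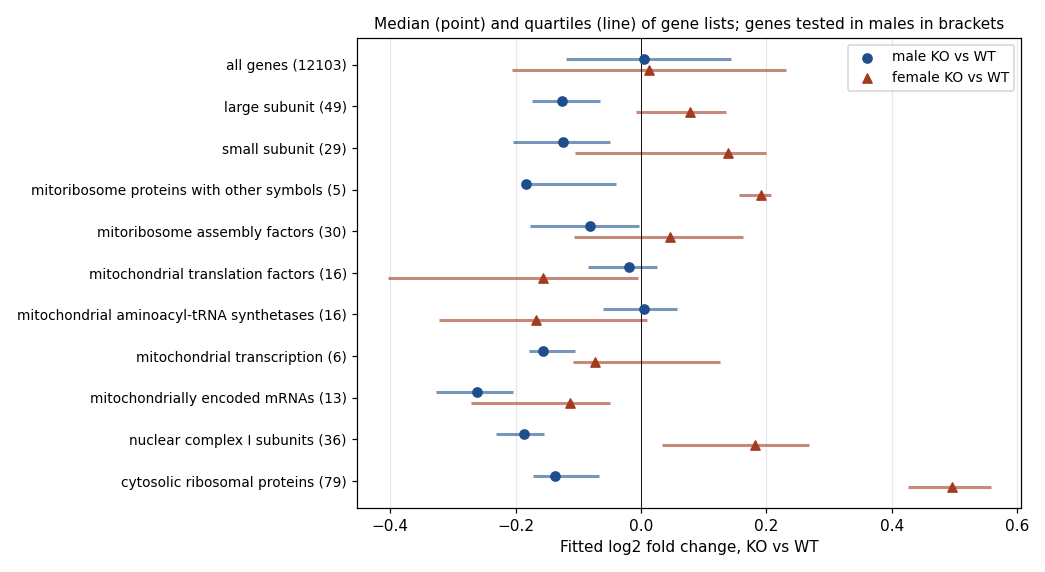
Median (point) and quartiles (line) of the fitted log2 fold change (x axis) of KO against WT mice for each gene list on the y axis, with males in blue and females in red. Large- and small-subunit genes lie at -0.13 and -0.12 in males and 0.08 and 0.14 in females, and the cytosolic ribosomal proteins lie farthest from 0 in females, at 0.50. Without female WT replicate 4, these female medians were -0.02, 0.01 and 0.37.

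Markers of other cell types in BAT also differed by genotype in the same libraries. In males, 9 of 10 macrophage markers were tested, all 9 were above 0 with a median log2 fold change of 0.82, and their summed level was 55.2 to 85.9 rescaled TPM in WT and 113 to 162 in KO mice. For fibroblast markers, 9 of 10 were tested, all above 0 with a median of 0.85, and their sum was 83.8 to 134 TPM in WT and 142 to 157 in KO mice. *Mfap5*, a microfibril protein, was the one past the limma threshold (log2 fold change 1.45, SE 0.12, adjusted p = 0.0153). The call held in 12 of 19 alternatives, and limma adjusted p was 0.0692 with a replicate block, 0.0702 with no TPM minimum and up to 0.111 with 1 library left out (without male WT replicate 1). It was also lost without male WT replicate 3 and without male KO replicates 2, 3 or 4. Brown adipocyte markers were below 0 in 9 of 10, with a median of -0.25 and sums of 11356 to 13895 TPM in WT and 9975 to 11934 in KO mice. Endothelial markers were above 0 in 8 of 10, with a median of 0.19. Their sums overlapped, at 319 to 491 TPM in WT and 407 to 431 in KO mice. The part of these shifts in the level of the mitochondrial ribosomal protein genes was not tested.

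In females, the 10 endothelial markers were all above 0, with a median of 0.66 and sums of 289 to 426 TPM in WT and 436 to 764 in KO mice, while macrophage and fibroblast markers had medians of 0.02 and 0.05. Brown adipocyte markers were above 0 in 8 of 10 with a median of 0.17. Skeletal muscle markers had medians of 0.28 in males, 9 of 10 above 0, and 1.08 in females, 10 of 10 above 0, and their sums ran from 80.0 to 4595 TPM, with ranges that overlapped between all groups. White adipocyte markers had medians of -0.29 in males and -0.72 in females over 6 genes. The female medians without female WT replicate 4 were 0.75 for endothelial, -0.06 for macrophage, 0.08 for fibroblast, 0.10 for brown adipocyte, 0.32 for skeletal muscle and -0.53 for white adipocyte markers. No lymphocyte marker had a mean of at least 1 TPM, and no marker of any list was at 0 in all libraries. The part of these values in the female results was not tested.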

How the data were processed

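Bulk RNA-seq of whole BAT was available for 16 mice. The authors prepared stranded polyA libraries (TruSeq Stranded mRNA), sequenced them single-end and quantified transcripts with kallisto (version 0.46.2, per the labels). The deposited values are TPM per transcript, scaled by the authors to a fixed sum. The authors tested with DESeq2, which needs counts and was not run here. The annotation release used by the authors is not given in the sources used here, and the strand setting of kallisto neither.

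Transcripts were matched to GENCODE mouse M21 (135051 of 137438), and TPM were summed per gene symbol. Libraries were divided by the median ratio to the geometric mean over 16526 genes above 0 in all libraries. log2(rescaled TPM + 0.5) was fitted with limma 3.58.1 (R 4.3.3, trend on mean level) for genes with a mean of at least 1 TPM over the libraries compared, so fold changes are on that scale and understate those of low genes. P-values were adjusted over all genes tested (Benjamini-Hochberg, threshold 0.05), and single genes were tested with exact two-sided permutation. Groups came from the labels. The settings were tested on simulated data. Promoters came from RefSeq.

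The members and lists were chosen with earlier results of these data known. Named genes were, per KO comparison, the 10 with the smallest p, 5 each for the interaction and the WT sexes, the 3 highest, lowest, steadiest and most variable genes, genes with misleading symbols, and up to 3 per other list. *Mrpl23-ps1*, *Mrps11* and head-to-head pairs were described after their values were seen. Alternatives covered scaling, pseudocount, TPM minimum, trend, replicate block, library prefix, a joint fit, protein-coding transcripts and each library left out.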

Additional observations from a re-analysis of the deposited data

Results flagged for a closer look

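Among 168 sets of 4 libraries checked, 8 held a library far from its 3 companions by Dixon's criterion, and chance flags about 1 in 20. *Mrpl10* was at 57.6 TPM in female WT replicate 4, against 60.8 to 60.9 in the others. In the same library *Mrpl23* was at 20.7 TPM, against 8.25 to 8.88, and *Mrps36* at 156 TPM, against 215 to 219. *Mrpl30* was at 213 TPM in female KO replicate 3, against 195 to 196. *Mrps18a* was at 60.3 TPM in male KO replicate 1, against 47.6 to 49.1, and without that library its log2 fold change in males was -0.44. *Mrps35* was at 69.1 TPM in male KO replicate 4, against 72.5 to 73.2. In male WT replicate 2, the median log2 level of all 78 genes was 5.79, against 5.68 to 5.69, and that of the large subunit was 5.81, against 5.69 to 5.70. Without that library, the median log2 fold change of the 78 genes in males was -0.09.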

How the results depend on the processing

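No mitochondrial ribosomal protein gene passed the adjusted threshold under any alternative run, in any of the 4 comparisons. The median log2 fold change in males was 0.0426 with values as deposited and -0.0625 when rescaled on transcripts outside the mitochondrial genome. *Mrpl32* and *Mrpl3* turned to 0.017 and 0.022 with values as deposited, and *Mrpl32* to 0.000977 with protein-coding transcripts only. Leaving out each library moved the male median between -0.16 and -0.09, the female median between -0.01 and 0.13, the interaction median between 0.11 and 0.24 and that of the WT sexes between -0.18 and -0.04. The large minus small difference stayed between 0.13 and 0.15. Members lower in males at an unadjusted p under 0.05 numbered 6 without male KO replicate 4 and 26 without male WT replicate 4. Shares over all genes in these fits were not computed.

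The correlations of same-numbered libraries ran from -0.11 to 0.35. Differently numbered libraries were not compared, so these values cannot show whether replicate numbers pair the mice. With a replicate block, no gene was called among the 78, and their medians stayed at -0.13 in males and 0.09 in females. Of the 78, 14 were lower in males at an unadjusted p under 0.05, and the share over all genes was not computed. Calls over all genes in males went from 3 to 0. Beside the 3 calls over all genes in males, there were 1 with values as deposited and 1 rescaled outside the mitochondrial genome, 14 with a pseudocount of 0.1, 0 without a TPM minimum, 8 without the trend, 6 with library prefix, 33 with protein-coding transcripts only and 61 with all 16 libraries in 1 fit. Beside the 0 in females, there were 6 with library prefix and 581 with all 16 libraries in 1 fit, and beside the 8 of the WT sexes, 3 with a replicate block, 5 with a minimum of 5 TPM, 5 with protein-coding transcripts only and 14 with all 16 libraries. Leaving out 1 library gave 0 to 10 calls over all genes in males, 0 to 13 in females, 0 to 2 for the interaction and 5 to 12 for the WT sexes. The SD of *Mrpl23*, 0.88, was 0.22 with the TPM of *Mrpl23-ps1* added, an alternative chosen after seeing the data, as were the other lists without female WT replicate 4 and the alternatives for *Mfap5*. Within labelled library prefixes, the member median of KO minus WT was -0.15 in males (prefix 9, 3 KO and 2 WT). In females it was 0.17 (prefix 8b, 1 KO and 3 WT) and -0.12 (prefix 10, 1 of each). Male libraries with prefix 5 were all WT and that with prefix 10 was KO. Prefix, whose meaning is not given in the sources used here, and genotype were thus partly confounded. The prefix fit of the WT sexes was not run because it could not be estimated. Without counts, detection limits are unknown.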
